A study of Mus musculus with 4 samples.

Results

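Ghrelin-dominant cells are the sorted gut epithelial cells in which the ghrelin transcript, Ghrl, outweighed the transcripts of 5 other peptide hormones. Members were chosen by measured values. A cell needed 500 or more genes detected, with no more than 20% of its UMIs (molecule tags that count RNA molecules once) from mitochondrial genes. Among Sst, Gip, Ghrl, Gcg, Nts and Cck, Ghrl had to hold the most UMIs and at least 2% of all UMIs of the cell, and the insulin genes Ins1 and Ins2 together had to stay under 1%. The rule found 253 such cells among the 15800 kept cells of the series: 197 at embryonic day 17.5 (E17.5), 29 in the adult and 27 after irradiation. Because Ghrl and the competing hormones chose the cells, their values are given as a description.

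The study profiled intestinal epithelial cells of Bmi1-GFP mice, which carry a green fluorescent protein reporter for the Polycomb gene Bmi1, by droplet sequencing of single cells after flow sorting. The series text describes the sorted cells as expressing Bmi1, and all groups carry the reporter. The libraries are an embryonic day 12.5 (E12.5), an E17.5, an adult and an irradiated adult library, with 1 library each. The dose, the time after irradiation, the sorting gates, and the number and sex of the animals are not given in the sources used here. With 1 library per group, no difference between stages or treatments has a replicate check, cells of a library are not replicates, and every interval below covers counting error only.

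Ghrelin is a peptide hormone that stimulates appetite and growth hormone release, made mostly in the stomach and by scattered enteroendocrine cells of the small intestine. It binds its receptor only after the enzyme ghrelin O-acyltransferase, encoded by Mboat4, has attached a medium-chain fatty acid, and the prohormone convertase encoded by Pcsk1 cuts it from its precursor. In the embryo, ghrelin cells also occur in the pancreas, as epsilon cells.

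Markers of enteroendocrine cells were in keeping with an endocrine label: 14 of 14 listed genes, among them Chga, Neurod1 and Pax6, were detected in the ghrelin-dominant cells of each library. Their summed level was 7366 counts per 1000000 UMIs (CPM) at E17.5, 9079 CPM in the adult and 12445 CPM after irradiation. The same sum was 282 CPM in enterocyte-marked cells at E17.5, and 773 and 2722 CPM in tuft-marked cells of the adult and irradiated adult libraries. Intestinal Cdx2 was present at 141, 126 and 127 CPM, in the order E17.5, adult and irradiated adult that is used throughout. Of 14 stomach genes, 5, 4 and 4 were detected, and Sox2, Gkn1, Gkn2, Muc5ac and Atp4b had 0 UMIs in all ghrelin-dominant cells. The stomach genes summed to 40.6, 92.7 and 14.4 CPM, against 25.3, 7.06 and 5.82 CPM in the same enterocyte- or tuft-marked cells. The other hormone classes held 7.95 to 41.1, 8.57 to 155 and 0 to 153 CPM. Of 16 islet genes, 13 were detected at E17.5, and Mafa, G6pc2 and Npy were at 0; 5 were detected in the adult and 4 after irradiation. Tuft markers summed to 14.3, 271 and 185 CPM, against 15683 and 16898 CPM in the tuft-marked cells of the adult libraries, which these markers chose. Of 13 tuft markers, 7, 11 and 11 were detected, and Gnat3 and Pou2f3 were at 0 in all libraries. Pancreatic acinar markers summed to 4694 CPM at E17.5, against 1071 to 5719 CPM in the other hormone classes of that library, and to 77.9 and 129.5 CPM in the adult libraries, where 10 of 12 were at 0. Paneth markers summed to 100.04, 2923 and 2261 CPM, below the 5193 and 3843 CPM of tuft-marked cells in the adult libraries. Goblet markers, which include Agr2 and Tff3, summed to 9931, 8441 and 9826 CPM, against 859 to 13264, 555 to 11475 and 4523 to 13624 CPM in the other hormone classes and 663, 413 and 1328 CPM in the reference cells. The goblet regulator Spdef was at 0 in both adult libraries.

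The 3 libraries held between 38648331 and 77677622 UMIs and 3184 to 4602 kept cells each. The ghrelin-dominant cells together held 1749307, 269629 and 486460 UMIs, so 3 UMIs correspond to 1.71, 11.1 and 6.17 CPM, and genes at low level were measured least well in the adult. A ghrelin-dominant cell had a median of 7910 UMIs and 2619 genes at E17.5, 4257 UMIs and 1641 genes in the adult, and 17795 UMIs and 4247 genes after irradiation. Between pairs of libraries, 48 cell barcodes recurred, and 2 of them belonged to ghrelin-dominant cells. Putative doublets made up 12 of the 197, 1 of the 29 and 2 of the 27 ghrelin-dominant cells.

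Ghrelin-dominant cells made up 4.28% of kept cells at E17.5 (95% Clopper-Pearson interval 3.71 to 4.91), 0.766% in the adult (0.513 to 1.10) and 0.848% after irradiation (0.560 to 1.23). As a share of the cells dominated by any of the 6 hormones, they were 19.6% of 1004 (17.2 to 22.2), 1.82% of 1592 (1.22 to 2.61) and 1.75% of 1544 (1.16 to 2.53). The sort can set these shares, so they describe the sorted cells and not the tissue. The intervals of the 2 adult libraries overlapped on both denominators, whereas the E17.5 intervals lay above both.

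Ghrl, on chromosome 6 (mm10, chr6:113716119-113719880, minus strand), took a median of 11.1% of a cell's UMIs at E17.5 (range 2.08 to 39.6), 8.10% in the adult (2.59 to 33.2) and 11.6% after irradiation (3.32 to 49.5). Just outside the 2% threshold, the highest Ghrl-led cell reached 1.99%, 1.70% and 1.37%, and 14, 7 and 1 cells lay between 1% and 2%. A single E17.5 cell was left out for insulin. The narrowest lead of Ghrl over the next hormone was 1.01, 1.17 and 1.03 times, and 77, 7 and 7 cells led by less than 2 times.

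Ghrl RNA was not restricted to the cells it dominated. Ghrelin-dominant cells held 60.4% of all Ghrl UMIs at E17.5, but 32.7% in the adult and 27.4% after irradiation. Cck-dominant cells held 16.7%, 34.3% and 45.6%, and Sst-dominant cells 11.4%, 24.6% and 19.7%. Ghrl reached 1% of UMIs in 56 of 106, 69 of 127 and 103 of 212 Sst-dominant cells (52.8%, 54.3% and 48.6%). Among Cck-dominant cells it did so in 153 of 340, 75 of 267 and 215 of 726 (45.0%, 28.1% and 29.6%). In Gip-dominant cells, whose product is the incretin of the upper intestine, the count was 8 of 127 at E17.5 and 0 of 1070 and 0 of 492 in the adult libraries. For Gcg-dominant cells it was 31 of 86, 6 of 11 and 19 of 27 (36.0%, 54.5% and 70.4%). Among cells dominated by neurotensin, Nts, Ghrl reached 1% in 45 of 148, 5 of 88 and 4 of 60 (30.4%, 5.68% and 6.67%).

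A second hormone among the 5 that competed in the rule reached 1% of UMIs in most E17.5 and irradiated adult members, and its identity differed between stages. Somatostatin, the peptide that restrains secretion of other hormones, reached 1% of UMIs in 56 of 197 ghrelin-dominant cells at E17.5 (28.4%, 22.2 to 35.3). It did so in 0 of 29 adult and 0 of 27 irradiated adult cells, which allows shares of up to 10.3% and 11.1% by the 3-count limit. Cholecystokinin, Cck, which drives gallbladder contraction and satiety, reached 1% in 56 of 197 (28.4%), 14 of 29 (48.3%, 29.4 to 67.5) and 16 of 27 (59.3%, 38.8 to 77.6). The proglucagon gene Gcg did so in 13 (6.60%), 4 (13.8%) and 10 cells (37.0%), and each of the 4 and of the 10 adult cells also passed 1% for Cck. None of the 5 competing hormones reached 1% in 76, 15 and 11 cells (38.6%, 51.7% and 40.7%). Of hormones outside the rule, secretin, Sct, which drives bicarbonate release, reached 1% in 112 of 197 (56.9%, 49.6 to 63.9), 7 of 29 (24.1%) and 3 of 27 (11.1%), the most frequent second hormone at E17.5. Peptide YY, Pyy, did so in 31 (15.7%), 0 and 2 cells (7.41%).

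The shares were similar at equal depth. With each cell thinned to 2000 UMIs, which left 192, 22 and 26 ghrelin-dominant cells, Sst reached 1% in 28.6%, 0% and 0%, Cck in 28.1%, 45.5% and 53.8%, Gcg in 6.25%, 18.2% and 38.5%, and Sct in 55.7%, 18.2% and 11.5%. In the reference cells, 410 enterocyte-marked cells at E17.5 (median 23613 UMIs before thinning) and 874 and 238 tuft-marked cells of the adult libraries (medians 4204 and 4719), Sst and Gcg reached 1% in 0 cells. Cck reached it in 4 of 410 (0.976%), 0 of 874 and 2 of 238 (0.840%), and Sct in 6 (1.46%), 1 (0.114%) and 2 (0.840%). The reference cells were chosen to hold less than 2% of each of the 6 rule hormones. Their low shares for Sst, Gcg and Cck are therefore partly set by that choice, in which Sct had no part. A single UMI was no sign of expression in the adult: Gip had at least 1 in 77.3% of ghrelin-dominant cells and in 93.4% of tuft-marked cells.

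Cells with both Ghrl and Sst were present in all 3 libraries, and the median part of Ghrl in the pair was higher at E17.5 than in the adult libraries. Counting every kept cell in which both reached 1%, whichever was dominant, such cells numbered 114 at E17.5, 69 in the adult and 108 after irradiation. Ghrl had more UMIs than Sst in 57 of the 114 (interval 40.5% to 59.5%), in 0 of 69 and in 1 of 108 (0.926%, 0.0234 to 5.05). Ghrelin-dominant cells by the rule made up 56 of the 114 (49.1%, 39.6 to 58.7), 0 of 69 and 0 of 108, and the 3-count limit for these zeros is 4.35% and 2.78%. The median part of Ghrl in the sum of the pair was 50.1%, 15.2% and 17.3%. Putative doublets made up 8.77%, 5.80% and 11.1% of these cells, against 4.19%, 5.04% and 4.81% of kept cells, and their part in the pattern was not tested. For Ghrl with Cck the cells numbered 268, 99 and 257, and Ghrl had more UMIs than Cck in 88, 19 and 20 of them (32.8%, 19.2% and 7.78%), with a median part of 35.7%, 24.4% and 19.3%. Ghrl with Gcg occurred in 79, 24 and 70 cells, and Ghrl had more UMIs in 30, 10 and 24 (38.0%, 41.7% and 34.3%).

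**Figure D1:**
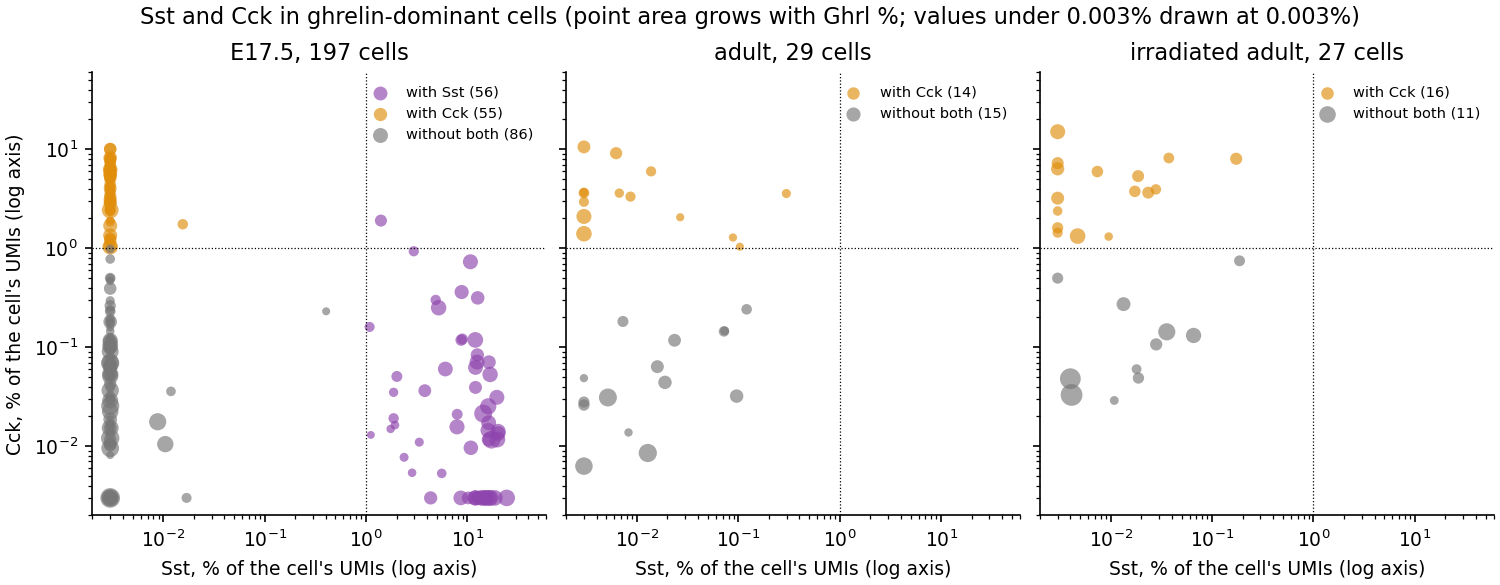
Each point is 1 ghrelin-dominant cell, placed by the percent of its UMIs from Sst (x axis, log scale) and from Cck (y axis, log scale) in the E17.5, adult and irradiated adult libraries, with point area growing with the Ghrl percent and colour giving the group of cells. At E17.5, 56 cells lie at or above 1% Sst and 140 under 0.05%, and in the adult libraries no cell reaches 1% Sst while 14 and 16 reach 1% Cck.

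At E17.5 the ghrelin-dominant cells fell into sharply separate groups by Sst. Sst was at or above 1% in 56 cells, under 0.05% in 140 and between these in 1, and a single cell passed 1% for both Sst and Cck. The cells were therefore described as Sst-bearing (56), Cck-bearing (55 without Sst) and remaining cells (86). In the adult there were 14 Cck-bearing and 15 remaining cells, and after irradiation 16 and 11. This division was made after the values were seen, and the genes named for it follow the rule given in the processing section, with no test. At E17.5 the groups had similar depth, with medians of 7473.5, 8378 and 7959 UMIs, and 6, 2 and 4 putative doublets. The adult groups differed in depth, with medians of 3880 UMIs in Cck-bearing and 12583 in remaining cells.

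Sst-bearing cells shared several transcripts with Sst-dominant cells. Hhex, the homeobox factor that maintains somatostatin cells, was detected in 54 of 56 Sst-bearing, 0 of 55 Cck-bearing and 2 of 86 remaining cells. Its level was 644 CPM (576 to 716) in Sst-bearing cells and 18.2 CPM (9.95 to 30.5) in remaining cells, and 975 CPM in the Sst-dominant cells of that library. The amyloid peptide gene Iapp stood at 7276 CPM (7046 to 7512), 39.0 CPM (23.1 to 61.7) and 530.3 CPM (480.1 to 584) in Sst-bearing, Cck-bearing and remaining cells, and it reached 1% of UMIs in 19, 0 and 1 cells. Sst-dominant cells of E17.5 held 9719 CPM of Iapp, 228 CPM of Rgs4 and 283 CPM of Asic5. The signalling regulator Rgs4 stood at 254, 2.17 and 9.10 CPM, and the ion channel gene Asic5 at 663, 0 and 33.8 CPM. Sst-bearing cells also held the most Ghrl, with a median of 19.1% of UMIs against 10.2% and 8.04%. The rule kept only cells with more Ghrl than Sst, and median Sst in this group was 11.9% of UMIs. Their Ghrl level is therefore partly set by the rule.

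Cck-bearing cells held several transcripts at a higher level than remaining cells in each library. The factor Onecut3 stood at 260.3 CPM (216 to 311) in Cck-bearing and 23.4 CPM (13.9 to 37.0) in remaining cells at E17.5, at 462 and 11.8 CPM in the adult (the latter 2 UMIs), and at 175 and 27.3 CPM after irradiation. The disulphide isomerase gene Agr2 stood at 2739.8 and 326 CPM, 2399.6 and 58.8 CPM, and 1960.3 and 361 CPM in the same pairs. Both genes were higher in Cck-bearing cells of each library, and Cck-dominant cells of E17.5 held 283 CPM of Onecut3 and 4718 CPM of Agr2. Agr2 is also a goblet cell marker, and the part of goblet RNA in its values was not tested. The ETS factor Etv1 showed the same order, with 412 and 211, 492 and 88.2, and 455 and 43.7 CPM. So did the mitochondrial phenylalanyl-tRNA synthetase gene Fars2, with 388 and 54.6, 472 and 41.2, and 583 and 38.3 CPM. The hormone secretin, Sct, stood at 70279.6 CPM in Cck-bearing and 12758 CPM in remaining cells at E17.5, at 31898 and 11551 CPM in the adult, and at 15890.4 and 1815 CPM after irradiation.

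The remaining cells, without appreciable Sst or Cck, held several transcripts of ghrelin-dominant cells at a higher level than Cck-bearing cells. Acsl1, a long-chain acyl-CoA synthetase, stood at 389.9 CPM (347 to 437) in remaining cells and 23.9 CPM (11.9 to 42.7) in Cck-bearing cells at E17.5. The same pair was 935 CPM (795 to 1092) and 50.2 CPM (16.3 to 117) in the adult, and 738 CPM (619 to 873) and 39.5 CPM (20.4 to 69.1) after irradiation. The oestrogen-responsive receptor gene Gper1 had 64, 27 and 39 UMIs in remaining cells and 0, 0 and 3 UMIs in Cck-bearing cells. Irs4, an insulin receptor substrate, had 158, 19 and 32 UMIs in remaining cells and 1, 2 and 3 UMIs in Cck-bearing cells. The MAGE family gene Maged2 stood at 1009, 1141 and 1224 CPM in remaining cells, and at 174, 251 and 247 CPM in Cck-bearing cells. Sst-bearing cells of E17.5 lay between for Acsl1 and Irs4, at 106 and 21.2 CPM, and near the remaining cells for Gper1, at 65.5 CPM against 83.2. Mboat4 differed less, with 263, 241 and 404 CPM against 106, 161 and 194 CPM.

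**Figure D2:**
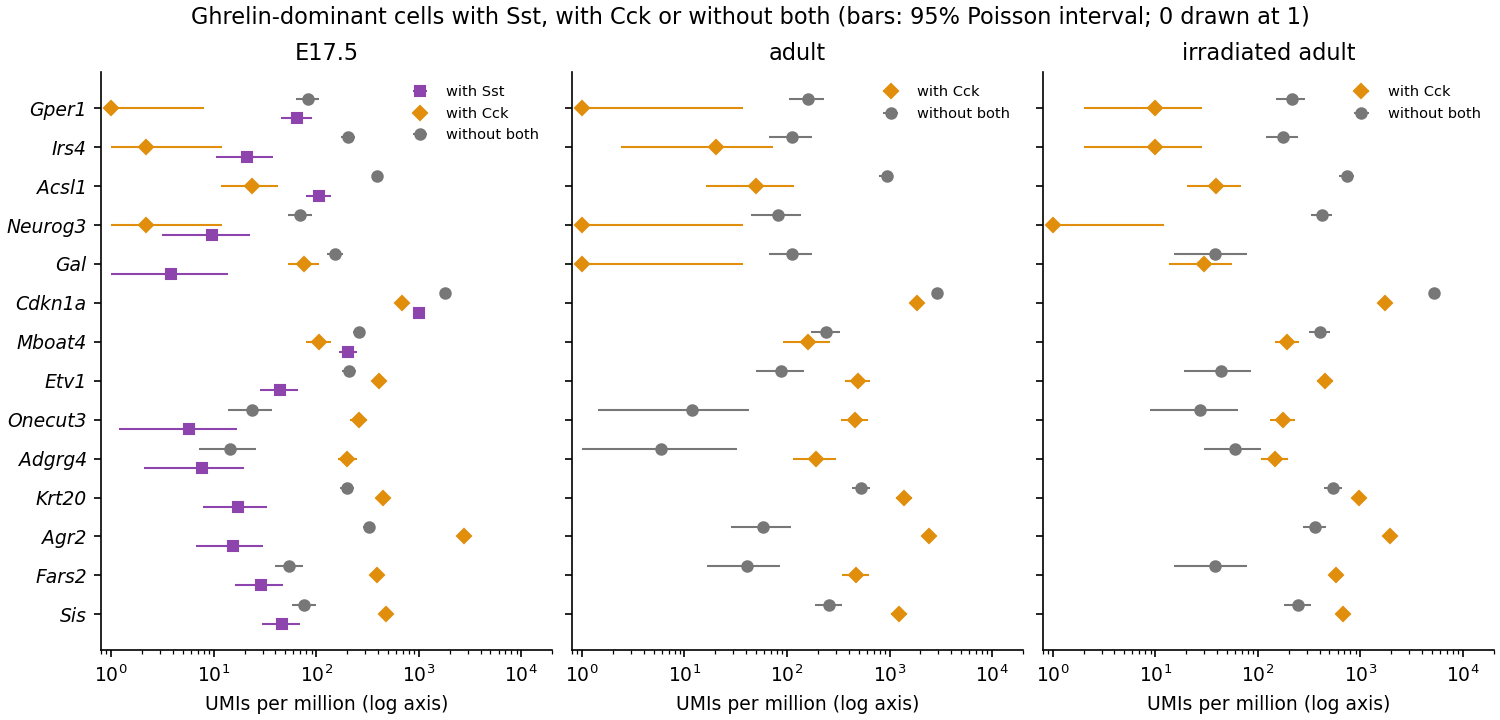
Levels in CPM (x axis, log scale) of selected genes (y axis) in ghrelin-dominant cells that bear Sst, bear Cck or bear neither, by library, with exact 95% Poisson intervals as bars and 0 drawn at 1. Acsl1, Irs4 and Gper1 lie higher in the remaining cells than in Cck-bearing cells in each library, and Onecut3, Agr2 and Fars2 lie the other way.

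Across libraries, 37 of 11035 genes counted were at least 2-fold higher in ghrelin-dominant cells than in the mean of the 5 other hormone-dominant classes in each of the 3 libraries (0.335%), and 140 were at least 2-fold lower (1.27%). The other classes come from the same libraries, and each was weighted equally. In the list of genes for ghrelin processing and acylation, 2 of 12 counted genes were higher, Mboat4 and Acsl1, and 1 was lower, Pcsk2, with list medians of -0.17, -0.14 and -0.08 on the log2 scale. Mboat4, the acyltransferase (chr8:34115030-34125182, plus strand), stood at 204 CPM (183 to 226) at E17.5, 211 CPM (160.1 to 274) in the adult library and 273 CPM (229 to 324) in the irradiated adult library. The mean of the other classes was 34.7, 27.6 and 24.2 CPM, and the highest single class was Sst-dominant each time, at 80.1, 73.9 and 94.7 CPM. Mboat4 was detected in 125 of 197, 16 of 29 and 21 of 27 ghrelin-dominant cells.

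Acsl1 (chr8:46471037-46536051, plus strand), which activates long-chain fatty acids, stood at 209 CPM (188 to 232) at E17.5, 608 CPM (519 to 709) in the adult library and 302 CPM (255 to 355) in the irradiated adult library, against 25.7, 51.0 and 44.1 CPM in the mean of the other classes. The relatives Acsl3 and Acsl5 were not higher than the mean of the other classes in any library, and several of the values were nearly equal to it. Acsl3 stood at 28.0, 33.4 and 18.5 CPM, against 29.5, 41.8 and 23.2 CPM. Acsl5 stood at 67.5, 14.8 and 76.1 CPM, against 80.9, 81.7 and 77.5 CPM, and its adult level was near the 11.1 CPM of 3 UMIs. The convertase Pcsk1 stood at 244, 371 and 359.7 CPM, against 188, 328 and 384 CPM, so ghrelin-dominant cells were within 2-fold of the other classes. The second convertase, Pcsk2, had 138 UMIs in 24 cells at E17.5 and 0 UMIs in both adult libraries. The carboxypeptidase Cpe, which trims cut peptides, stood at 737, 1198 and 1632 CPM, the amidating enzyme Pam at 310.4, 367 and 407 CPM and the convertase chaperone Scg5 at 257, 256 and 286 CPM, all within 2-fold of the other classes.

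Of 31 listed receptors described on ghrelin cells, 17 were counted, 1 was higher than in the other classes (Gper1) and 3 were lower (Ffar1, Sstr2 and Gabbr2), against 0.335% and 1.27% of all genes. Gper1 (chr5:139423151-139427800, plus strand) stood at 56.0 CPM (45.5 to 68.3) at E17.5, 100.1 CPM (66.0 to 146) in the adult library and 86.3 CPM (62.2 to 117) in the irradiated adult library, and the other classes averaged 7.02, 12.4 and 6.81 CPM. In the adult libraries a single cell held 40.7% and 40.5% of its UMIs. The short-chain fatty acid receptor Ffar2 stood at 248, 404 and 362 CPM, against 145, 116 and 127 CPM, and was within 2-fold at E17.5 only. The long-chain fatty acid receptor Ffar1 stood at 40.02, 85.3 and 111 CPM, against 81.1, 213 and 246 CPM. The adrenergic receptor Adrb1, through which sympathetic input reaches gastric ghrelin cells, had only 2, 3 and 4 UMIs and was not measurable at this depth.

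Of 29 listed endocrine transcription factors, 25 were counted against the other classes, and 0 were lower, near the 1.27% of all genes. The list medians were 0.02, -0.05 and 0.13 on the log2 scale. The LIM factor Isl1 stood at 833, 1109 and 526 CPM, against 474, 641 and 426 CPM, and Neurod1, which drives endocrine differentiation, at 345, 605 and 685 CPM, against 309, 686 and 668 CPM. Neurog3, the transient factor that starts endocrine differentiation, had 60, 14 and 77 UMIs in 19, 6 and 2 cells. In the irradiated adult 1 cell held 97.4% of them, so that level describes a single cell.

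Among genes named for size of difference, Maged2 (chrX:150806370-150814345, minus strand) stood at 626, 812 and 615 CPM, against 114, 61.1 and 88.5 CPM. The phospholipase gene Plb1 stood at 59.5, 197 and 74.0 CPM, against 9.47, 2.17 and 5.21 CPM. The surface protein gene Cd177 (chr7:24743983-24760311, minus strand) stood at 96.0, 208 and 1131 CPM, against 19.1, 41.5 and 84.6 CPM, and the adhesion molecule gene Ceacam10 at 84.0, 1016 and 658 CPM, against 12.4, 194 and 189 CPM. These genes were above every other class in each library. The potassium channel gene Kcnk16 stood at 196, 159 and 191 CPM, the guidance receptor gene Epha4 at 42.3, 48.2 and 28.8 CPM and the interleukin receptor gene Il11ra1 at 98.9, 55.6 and 53.4 CPM. The inhibitor of cyclin-dependent kinases Cdkn1a stood at 1268, 2518 and 3079 CPM, against 586, 556 and 943 CPM, and the neuropeptide gene Gal at 88.6, 70.5 and 32.9 CPM, against 39.9, 2.31 and 8.78 CPM. Irs4 (chrX:141710998-141725263, minus strand), chosen after its values were seen, had the sharpest contrast of those inspected, at 97.2, 77.9 and 71.9 CPM, against 1.01, 0 and 0.244 CPM. It was detected in 36 of 197, 7 of 29 and 7 of 27 cells, and 1 irradiated adult cell held 42.9% of its UMIs there.

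**Figure D3:**
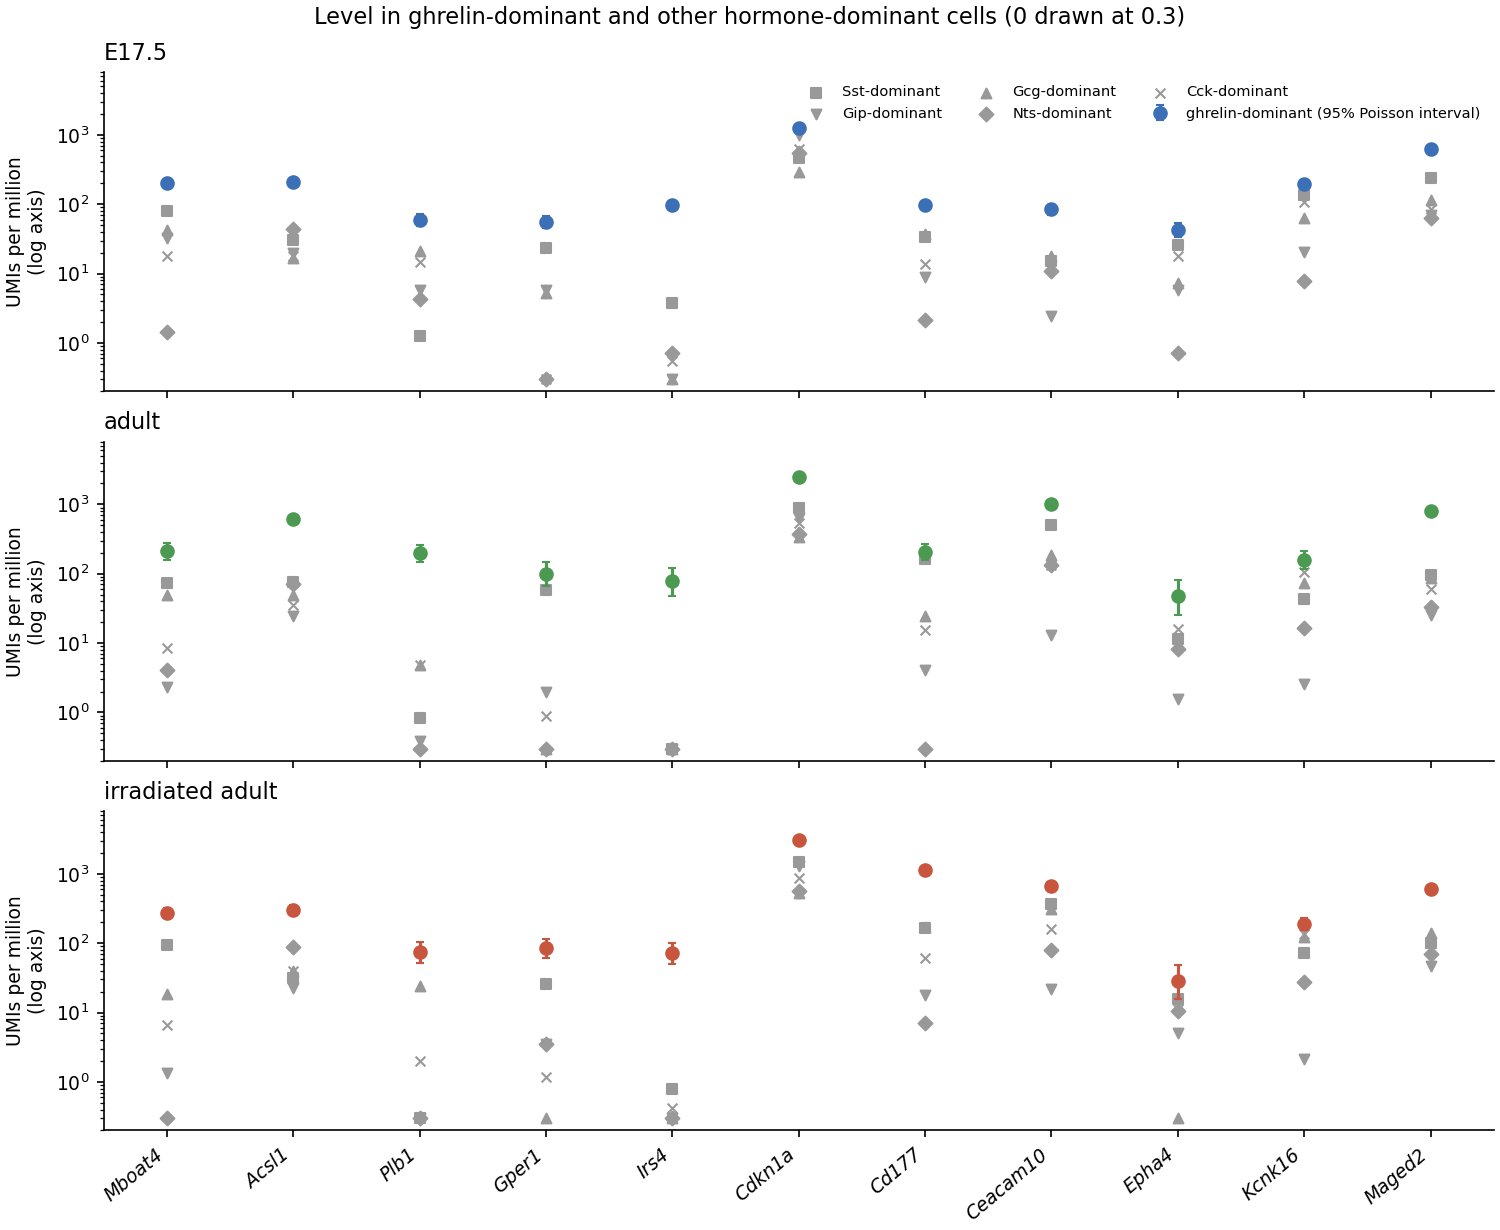
Levels in CPM (y axis, log scale) of genes named above (x axis) in ghrelin-dominant cells (coloured points with exact 95% Poisson intervals) and in Sst-, Gip-, Gcg-, Nts- and Cck-dominant cells (grey symbols), 1 panel per library, with 0 drawn at 0.3. Mboat4 lies at 204, 211 and 273 CPM in ghrelin-dominant cells and no higher than 94.7 CPM in any other class.

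Of the 10 genes named as lower in ghrelin-dominant cells, 8 had their highest level in Gip-dominant cells in each library (Cnr1, Fabp5, Plcxd3, Pkib, Tmprss7, Gpx3, Pdk4 and Gatm), and Reg3b and Kcnj3 did not. The fatty acid binding protein gene Fabp5 stood at 157, 137 and 243 CPM, against 4986, 6998 and 9387 CPM in Gip-dominant cells. The cannabinoid receptor gene Cnr1 had 8, 0 and 0 UMIs, against 214, 411 and 336 CPM in Gip-dominant cells. The glutathione peroxidase gene Gpx3 stood at 165, 29.7 and 53.4 CPM, against 631, 213 and 274 CPM in the mean of the other classes.

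Between E17.5 and the adult, 649 of 8442 genes counted were at least 2-fold higher in adult ghrelin-dominant cells (7.69%) and 1053 at least 2-fold lower (12.5%), with a median log2 ratio of -0.00 over all. Counting intervals excluded equal levels for 502 of the 649 and 456 of the 1053. Under TMM scaling (edgeR) the counts were 470 and 1209, with a median of -0.13. With means of each cell's CPM they were 1109 and 1943, with a median of -0.21, and with each gene's top cell in each library left out they were 404 and 1556, with a median of -0.24. Because Sst-bearing cells occurred only among E17.5 members, values within the remaining cells are also given for some of the genes and lists.

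Fetal growth genes were lower in the adult: 11 of 13 counted, with 1 higher, against 12.5% and 7.69% of all genes. The median log2 ratio was -5.02, and it ranged from -8.22 to -2.05 under the alternatives. Only 4 of the 19 listed genes had a UMI in the adult. For a gene at 0 UMIs, the size of the ratio depends on the 1 CPM added to each level. H19, an imprinted noncoding RNA, stood at 311 CPM (285 to 338) at E17.5 and had 0 UMIs in the adult, at least 27.9-fold lower. Meg3, another imprinted noncoding RNA, went from 877 CPM (834 to 922) to 14.8 CPM (4.04 to 38.0), a log2 ratio of -5.79 (-7.76 to -4.53). The RNA-binding protein gene Igf2bp1 had 57 UMIs at E17.5 and 0 in the adult. Cdkn1c, an imprinted inhibitor of the cell cycle, was the exception, at 430.5 CPM (400.3 to 462) and 1198 CPM (1071 to 1336). In remaining cells alone Meg3 stood at 639 and 5.88 CPM (1 UMI), so the difference was also present without the Sst-bearing cells. The list median there was -5.54.

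Of 8 counted islet genes, 8 were lower in the adult, against 12.5% of all genes, with a median of -4.01. That median ranged from -7.25 to -1.74 under the alternatives. Iapp went from 2402 CPM (2330.0 to 2476) to a single UMI (3.71 CPM), a log2 ratio of -9.00 (-14.64 to -6.86), and in remaining cells from 530.3 CPM (480.1 to 584) to 0 UMIs. Ttr, a thyroid hormone carrier, went from 3605 CPM (3517 to 3696) to 849 CPM (743 to 967), and in remaining cells from 2561 to 659 CPM. Of 10 counted other peptide hormones, 7 were lower and 0 higher, against 12.5% and 7.69% of all genes, with a median of -1.62. Iapp, Ppy and Ucn3 were among the lower genes of both lists, so the islet and hormone counts are not separate. Peptide YY, Pyy, which slows gut transit (chr11:102106676-102107832, minus strand), went from 7267 CPM (7142 to 7395) to 3 UMIs (11.1 CPM), a log2 ratio of -9.23 (-11.63 to -7.80). In remaining cells Pyy went from 10534 to 5.88 CPM (1 UMI). The retinol carrier gene Rbp4 went from 3593 CPM (3505 to 3683) to 1024 CPM (906 to 1152), and in remaining cells from 3422 to 1017 CPM. In remaining cells the medians of the islet and other hormone lists were -6.13 and -1.75. Hhex had 348 UMIs at E17.5 and 0 in the adult, at least 17.9-fold lower, but only 14 of the 348 were in remaining cells. Slc38a5 and Igfbpl1, an amino acid transporter gene and a binding protein gene, were at 126, 0 and 0 CPM and 113, 0 and 0 CPM, at least 11.3-fold and 10.2-fold lower in the adult.

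The acinar enzyme genes Ctrb1, Pnliprp1 and Clps were also among the 10 lowest ratios. Ctrb1 stood at 1051 CPM at E17.5 and at 0 in the adult, but a single E17.5 cell, a putative doublet with 16.7% of its UMIs from acinar markers, held 84.5% of them. That cell also held 79.5% of Pnliprp1 and 12.4% of Clps. The other hormone classes of E17.5 averaged 709 CPM of Ctrb1 and 2030.2 CPM of Clps, and the part of free acinar RNA in these values was not tested.

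Genes at a higher level in the adult were led by Paneth cell markers. Of these, 6 of 6 counted were past 2-fold (Defa17, Defa24, Defa30, Lyz1, Itln1 and Ang4), against 7.69% of all genes, with a median of 5.47. The defensin gene Defa24 went from 49.2 to 1413 CPM and Defa30 from 0 to 731 CPM. Tuft-marked adult cells held 2555 and 1321 CPM of them, above the ghrelin-dominant cells, and the part of RNA from other cells in these values was not tested. Pigr, the carrier of secreted antibodies, went from 5.72 to 223 CPM, with 58.3% of the adult UMIs in 1 cell. Ooep, a gene known from oocytes, went from 31.4 to 415 CPM, with 71.4% in 1 cell and a log2 ratio of 3.68 that was 2.42 without the top cells.

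Immediate early genes respond within minutes to stimulation or handling. In the adult 10 of 19 counted were higher and 1 lower, against 7.69% and 12.5% of all genes, with a median of 1.01. Klf4 went from 44.6 CPM (35.2 to 55.6) to 319 CPM (255 to 394), Klf6 from 167 to 534 CPM and Fos from 815 to 1317 CPM. The other hormone classes of the same libraries had Klf4 log2 ratios between 1.60 and 2.80, against 2.81 in ghrelin-dominant cells. Ceacam10 went from 84.0 CPM (71.0 to 98.8) to 1016 CPM (899 to 1144), and Fxyd2, a sodium pump subunit gene, from 30.9 to 319 CPM, both higher in the remaining cells as well, with log2 ratios of 3.45 and 2.87. For Fxyd2 the other classes had ratios from -3.37 to 0.95. Lars2, a mitochondrial tRNA synthetase gene, went from 86.9 to 586 CPM, and its ratios in the other classes ran from 1.87 to 5.70.

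Of 13 counted genes of lipid absorption, 9 were lower in the adult and 0 higher, against 12.5% and 7.69% of all genes, with a median of -1.88. The lower genes of the list include Fabp1 and the apolipoprotein genes Apoa1 and Apoa4. Enterocyte markers, of which Fabp1 is one, summed to 2648 CPM at E17.5 and 1550 CPM in the adult. The part of enterocyte RNA in the result was not tested. In remaining cells the list median was -0.67, and the Sst-bearing cells of E17.5 held 2538 CPM of Fabp1 and 863 CPM of Apoa1, against 229 and 85.8 CPM in remaining cells. Fabp1 turned to 0.89 among members with at least 5% Ghrl. Of 10 counted G2 and mitosis genes 4 were lower (Ccna2, Cenpe, Cenpf and Ube2c), and of 14 S phase genes 4 were lower (Mcm2, Mcm7, Rrm1 and Rrm2), with 0 higher in both, against 12.5% of all genes lower. The list medians ranged from -2.74 to 0.24 and from -1.10 to 0.39 under the alternatives, so neither direction held under each of them. Of 7 counted MHC genes 3 were higher (B2m, Psmb8 and Psmb9), against 7.69% of all genes, with list medians of 0.70 to 2.27 under the alternatives. B2m, the light chain of class I molecules, went from 44.0 CPM (34.7 to 55.0) to 229.9 CPM (176 to 295). Of 19 counted p53 targets 5 were already higher in the unirradiated adult than at E17.5 (Btg2, Ercc5, Gdf15, Pmaip1 and Trp53inp1), against 7.69% of all genes, although Gdf15 turned to -1.08 in remaining cells and the list median was 0.14 there.

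Of the 14 enteroendocrine markers, 0 were past 2-fold in either direction between E17.5 and the adult, with a median of 0.59. Of 20 granin and granule genes, 4 were higher, among them Rab3c, Scgn and Unc13a, and 1 lower (Rab3b), with a median of 0.50. Of 25 counted transcription factors, 3 were higher (Mlxipl, Onecut3 and Sox4) and 2 lower (Hhex and Pax4), with a median of 0.54. In remaining cells these 3 medians were 0.09, 0.29 and 0.06. Of all genes, 7.69% were higher and 12.5% lower. Within remaining cells the log2 ratio of Onecut3 was -0.93, so its direction turned there. Acsl1 was higher, with a log2 ratio of 1.54 (1.26 to 1.81), and Mboat4 was nearly level, with 0.05 (-0.38 to 0.46). In remaining cells the ratios were 1.26 and -0.12.

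**Figure D4:**
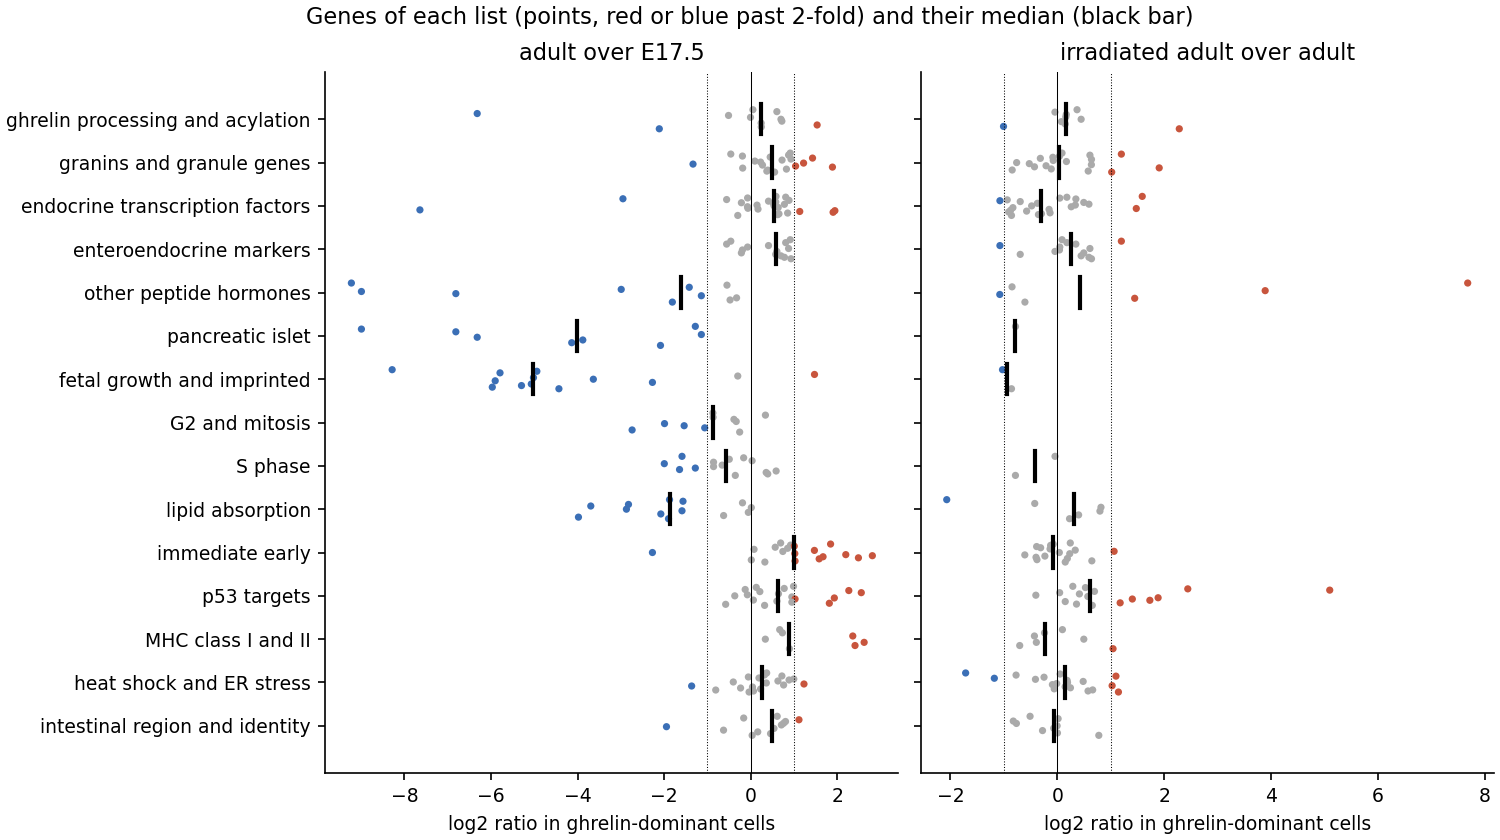
Log2 ratios in ghrelin-dominant cells (x axis) of the genes of each list (rows) for adult over E17.5 and for irradiated adult over adult, with 1 point per counted gene, red or blue past 2-fold, and a black bar at the list median. Fetal growth and islet genes lie lowest in adult over E17.5 (medians -5.02 and -4.01). These 2 medians ranged from -8.22 to -2.05 and from -7.25 to -1.74 under the alternatives. The p53 targets have a median of 0.61 in irradiated adult over adult.

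After irradiation, 291 of 5127 genes counted were at least 2-fold higher than in the unirradiated adult (5.68%) and 284 at least 2-fold lower (5.54%), with a median log2 ratio of -0.07. Counting intervals excluded equal levels for 187 and 234 of them. Higher genes made up 50.6% of those past 2-fold, but 64.9% under TMM scaling (360 higher and 195 lower) and 40.3% among cells with Sst and Cck each under 1% (153 and 227). The adult library serves both this comparison and the preceding one. Cck-bearing cells held 99599 of the 269629 UMIs of adult members and 303517 of the 486460 UMIs of irradiated adult members. Values by group are given for some genes below. For the other genes, the part of this difference in the ratios was not tested.

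Of 16 counted targets of p53, the factor that DNA damage activates, 6 were at least 2-fold higher, against 5.68% of all genes, and 0 lower, with a median of 0.61, between 0.49 and 1.14 under the alternatives tried. Phlda3, which restrains the kinase Akt (chr1:135766119-135769136, plus strand), went from 1 UMI in the adult (3.71 CPM) to 78 UMIs in 17 of 27 irradiated adult cells (160.3 CPM), a log2 ratio of 5.10 (2.91 to 10.76). The same ratio was 2.53 to 6.28 in the other hormone classes. Ccng1, a cyclin of the p53 feedback (chr11:40748552-40755311, minus strand), went from 40.8 CPM (20.4 to 73.0) to 226 CPM (186 to 273), a ratio of 2.44 (1.58 to 3.51), with 2.02 to 3.52 in the other classes. Gdf15, the stress hormone that suppresses appetite, went from 70.5 CPM (42.4 to 110.0) to 236 CPM (195 to 284). Zmat3 went from 29.7 to 80.2 CPM, Aen from 14.8 to 57.6 CPM, and Plk2 from 18.5 to 43.2 CPM with an interval that includes equal levels. The differences in Phlda3 and Ccng1 were shared with the other classes, and no difference between classes was tested.

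The arrest gene Cdkn1a and the feedback gene Mdm2 stayed within 2-fold. Cdkn1a was at 1268 CPM (1216 to 1322) at E17.5, 2518 CPM (2332 to 2715) in the adult library and 3079 CPM (2925 to 3239) in the irradiated adult library, a log2 ratio of 0.29 (0.16 to 0.42) after irradiation, whereas the other classes had ratios from 0.60 to 1.03. Its adult level in ghrelin-dominant cells was already 2518 CPM, above the irradiated mean of the other classes at 943 CPM. By group, Cdkn1a went from 2911 to 5286 CPM in remaining cells and from 1847 to 1749 CPM in Cck-bearing cells. Mdm2 stood at 48.2 and 69.9 CPM, and the death effector Bax at 252 and 409 CPM. Eda2r had 0 UMIs in the adult and 8 in 6 irradiated adult cells.

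**Figure D5:**
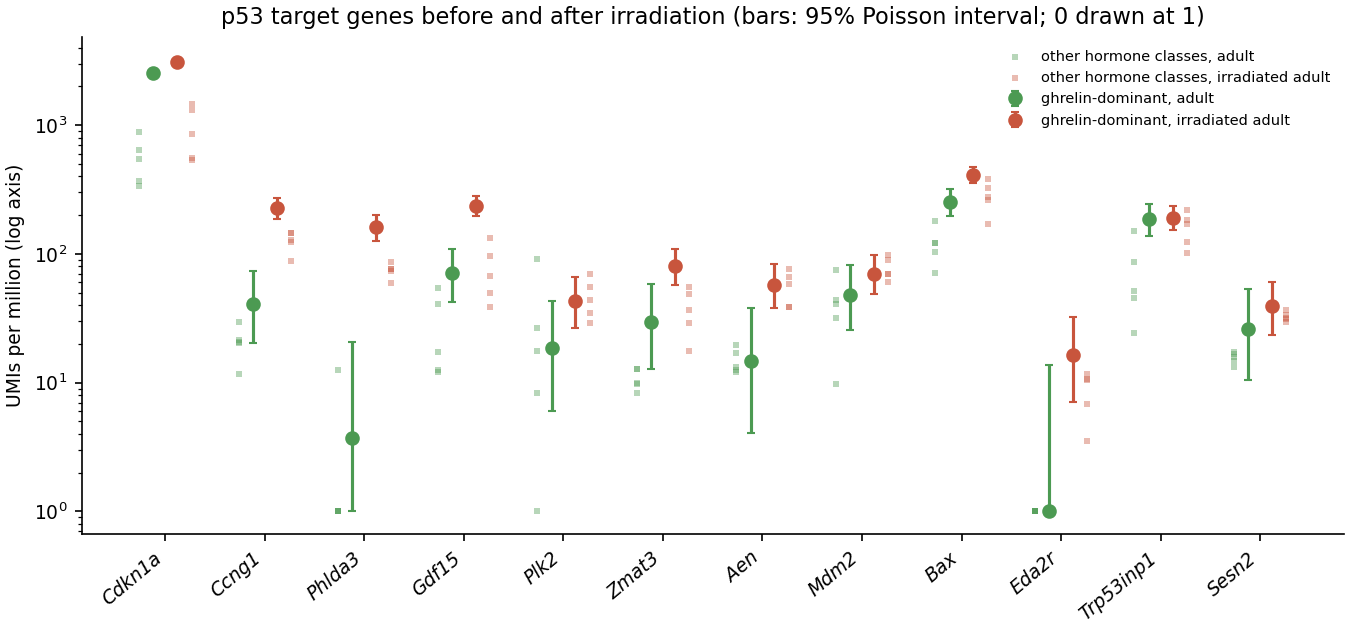
Levels in CPM (y axis, log scale) of p53 target genes (x axis) in ghrelin-dominant cells of the adult and irradiated adult libraries (large points with exact 95% Poisson intervals) and in the other hormone-dominant classes (small squares), with 0 drawn at 1. Phlda3 and Ccng1 lie at 160.3 and 226 CPM after irradiation against 3.71 and 40.8 CPM before, and the other classes show higher levels after irradiation for both genes too.

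Several of the highest ratios after irradiation came from 1 cell. Ly6a, a surface protein of regenerating epithelium, went from 0 to 58 UMIs, of which 87.9% were in a single cell. The calcium-binding protein gene S100a6 went from 100.1 to 2109 CPM, S100a14 from 7.42 to 185 CPM and the annexin gene Anxa2 from 167 to 1277 CPM. The same cell held 93.0%, 76.7% and 86.5% of these UMIs. It had 52314 UMIs and 6438 genes, was not a putative doublet, and carried 3.32% Ghrl, 1.23% Gcg and 1.31% Cck. Without the top cell of each gene in each library, the log2 ratio was 2.08 for S100a6 and 0.66 for Anxa2. Pyy went from 3 UMIs to 2487 CPM (2349 to 2632), a log2 ratio of 7.68 (6.25 to 10.08), with 59.7% in 1 cell and a ratio of 6.90 without the top cells. All but 2 of its 1210 UMIs were in Cck-bearing cells.

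Other differences after irradiation were spread over more cells. Cd177 went from 208 CPM (157 to 269.7) to 1131 CPM (1038 to 1229) and was detected in 15 of 29 and 23 of 27 cells, a log2 ratio of 2.44 (2.05 to 2.87). It was higher in remaining cells (3.05) and in Cck-bearing cells (1.92). Tdh, a threonine dehydrogenase gene, went from 2 to 59 UMIs, in 2 of 29 and 10 of 27 cells, a log2 ratio of 3.86 (2.11 to 7.11), and 57 of the 59 were in remaining cells. The antimicrobial ribonuclease gene Ang4 went from 70.5 to 711 CPM, against 47.2 CPM in irradiated tuft-marked cells. The tachykinin gene Tac1 went from 3 UMIs in 1 cell to 87 UMIs in 12 cells, a log2 ratio of 3.89 (2.41 to 6.31) with 2.08 to 6.54 in the other classes, and the glutaminyl cyclase gene Qpct from 22.3 to 139.8 CPM, though Qpct had a ratio of -0.10 within remaining cells. The granule genes Chgb, Ptprn and Resp18 were the 3 of 19 counted that were past 2-fold. All were higher, against 5.68% of all genes, and the list median was 0.04. Chgb went from 1947 CPM (1784 to 2121) to 4471 CPM (4285 to 4663).

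Among genes lower after irradiation, Isl1 went from 1109 CPM (987 to 1242) to 526 CPM (464 to 595), a log2 ratio of -1.07 (-1.32 to -0.83), with ratios from -0.90 to 0.06 in the other classes. Acsl1 went from 608 CPM (519 to 709) to 302 CPM (255 to 355), but in remaining cells alone its ratio was -0.34, within 2-fold. Mboat4 had a ratio of 0.37 (-0.09 to 0.85). The neurofilament gene Nefm went from 682 to 204 CPM, and Fxyd2 from 319 to 55.5 CPM. Lars2 went from 586 to 105 CPM. Ooep went from 415 to 45.2 CPM, but most of its adult UMIs were in 1 cell, as given above. Hmgb2 and Pycard were also among the 10 lowest, and there too 1 adult cell held 61.8% and 70% of their UMIs.

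Bmi1, the gene behind the reporter, was low in ghrelin-dominant cells, with 37, 6 and 9 UMIs in 32 of 197, 5 of 29 and 8 of 27 cells (21.2, 22.3 and 18.5 CPM). Transcripts of eGFP numbered 6, 0 and 16 UMIs, the last in 12 of 27 cells. The eGFP level after irradiation was 32.9 CPM (18.8 to 53.4), at least 2.96-fold above the 3-count limit of the adult, and the other hormone classes had log2 ratios from 2.43 to 4.78, with 13.6 CPM in irradiated tuft-marked cells. Of 15 Bmi1 and Polycomb genes, 11 were counted between E17.5 and the adult, with 0 past 2-fold. In that comparison 7.69% of all genes were higher and 12.5% lower.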

How the data were processed

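Single-cell libraries were made with 10x Chromium 3' version 3 chemistry, per the labels' protocols, and processed with Cell Ranger 3.1.0 against mm10, per the submitters' processing notes. The deposited matrices hold UMI counts per gene and barcode, whole numbers that the authors did not normalize in these files.

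Cells were kept and classed by the rule that opens the report. Counts were summed over the cells of a class in each library and divided by their total UMIs, giving counts per 1000000 UMIs (CPM). Ratios are log2 of (CPM + 1) between summed counts, for genes with at least 20 UMIs over both groups, and a gene was called past 2-fold. Counting intervals are exact 95% Poisson intervals for levels, exact conditional intervals for ratios and Clopper-Pearson intervals for shares. No other source of error is in them. No test was run, since a group is a single library, and the stages also differ in library, depth and sort. The limit for a count of 0 is 3 counts.

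Named genes are the 10 highest and 10 lowest ratios of a comparison with at least 50 UMIs in the higher group and a UMI in at least 20% of its cells, plus members of the gene lists. The members and lists were chosen with earlier results of these data known. The division by Sst and Cck, and the alternatives that leave out each gene's top cell, the Ly6a-rich cell, or cells with Sst or Cck, were chosen after seeing the data. No doublet step is part of the rule: Scrublet's automatic threshold called 0.565%, 0.0792% and 0.0314% of kept cells, so the highest-scoring 0.8% per 1000 barcodes were called putative doublets and removed as an alternative. Other alternatives changed the pseudocount, the UMI minimum, the scaling (TMM, edgeR 4.0.16 in R 4.3.3), the cell filters and the Ghrl threshold. Reference cells had at least 1% of UMIs from enterocyte (E17.5) or tuft (adult) markers and less than 2% from each of the 6 rule hormones. Ratios were tested on simulated data, in which counting error alone also carried some unchanged genes past 2-fold, so counts of genes past 2-fold can include such genes. Scanpy 1.11.5, pandas 2.3.3, matplotlib 3.10.9, scipy 1.17.1 and numpy 2.4.6 in Python 3.11.15 were used. Gene positions are from the GENCODE annotation of GRCm38, the assembly mm10 names. Some results for single genes are not reported here.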

Additional observations from a re-analysis of the deposited data

Results flagged for a closer look

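The E12.5 library, which the rule for ghrelin-dominant cells did not use, held 266 Ghrl UMIs, in 37 of 4226 kept cells. The signal lies above the 3 counts that a count of 0 allows. The highest cell had 159 UMIs of Ghrl, 1.67% of its UMIs, below the 2% threshold, and 3 cells of that library were dominated by any of the 6 hormones, all by Gcg.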

How the results depend on the processing

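No paired analysis was possible because each group is 1 library and carries no replicate number. Of the alternatives to the main results, 137 stayed within the stated bounds and 31 moved. Ghrelin-dominant cells numbered 165 at E17.5 with Ghrl at 5% of UMIs. With Ghrl at least 4 times the next hormone they numbered 90, 17 and 14 (1.20% of hormone-dominant cells in the adult), and with 1000 genes and 10% mitochondrial UMIs the adult had 16.

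Counts past 2-fold moved as follows, with higher given before lower. With a pseudocount of 10 they were 344 and 575 for adult over E17.5, 187 and 171 for irradiated adult over adult, and 18 and 26 over the other classes. At 5 UMIs they were 1250 and 2150, 1061 and 1078, and 56 higher over the other classes. At 100 UMIs they were 124 and 230, 42 and 24, and 16 and 54. Averaging CPM over cells, they were 1109 and 1943, and 641 and 545. Cells with Sst and Cck each under 1% gave 153 higher after irradiation, and 90 and 327 over the other classes. Leaving out each gene's top cell gave 404 higher in the adult. Higher genes made up 38.1% of calls for adult over E17.5, 28.0% under TMM and 20.6% without top cells. For irradiated adult over adult they made up 50.6%, 64.9% under TMM, 63.6% at 100 UMIs and 40.3% in cells with Sst and Cck each under 1%. Over the other classes they made up 20.9%, and 40.9% with a pseudocount of 10. The cause was not tested.

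Directions reversed for 2 list medians and 16 single gene ratios. In adult over E17.5, serotonin synthesis had a median of -0.0855 at 5 UMIs and enterocyte markers 0.18 at 5% Ghrl, where Alpi had 0.75, Fabp1 0.89, Fabp2 0.10 and Rbp2 0.25. Neurog3 after irradiation had -3.11 at 5% Ghrl and -2.77 without its top cell. Olfm4 in adult over E17.5 had -1.10 at 1000 genes and 10% mitochondrial UMIs and -0.54 without its top cell, and Hspb1 after irradiation had -0.35 without its top cell. In cells with Sst and Cck each under 1%, adult over E17.5 was 1.04 for Asic5, -2.04 for Ffar1, -1.08 for Gdf15, -3.34 for Hpgds and -0.93 for Onecut3, and irradiated adult over adult was -0.37 for Anxa2 and -0.10 for Qpct.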
